A study of Hipposideros armiger with 2 samples.

Results

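Fatty acid synthesis turns surplus carbon into stored fat: cytosolic citrate is cleaved to acetyl-CoA, acetyl-CoA is carboxylated to malonyl-CoA, and a synthase joins these units into palmitate, which is then elongated and desaturated. In liver the pathway is switched on by insulin through the transcription factor SREBP-1 and by glucose through ChREBP, and fat tissue and surfactant-making lung cells use it too. The genes described here are 10 names of this pathway: the regulators SREBF1 (SREBP-1) and MLXIPL (ChREBP), the enzymes ACLY, ACACA, ACACB, FASN, ELOVL6 and ME1, and the desaturase under the 2 names SCD and SCD1. All 10 names were found, on 42 of 55378 assembled genes, of which 15 had a mouse protein as best match and 27 a protein of another species.

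The libraries are from Hipposideros armiger, a leaf-nosed bat, caught at the cave coded CW in Guangdong. Both are labelled liver, wild type and exposed to heavy metals, and replicate 2 is also labelled adult and male; the design text speaks of adult males throughout. No samples of the second cave, YD, were analysed here. They form 1 group with 1 library per replicate number. Differences between them are therefore given as values, with no p-value, and the heavy metal exposure shared by both has no unexposed samples here to be set against. Pooling, clones and transgenes are not named in the labels. An assembled gene is a cluster of transcripts built from the reads without a genome, and its name is that of the closest Swiss-Prot protein in the authors' tables, which does not show the species it came from. RefSeq's bat annotation (assembly ASM189008v1) lists 9 of the 10 names as symbols; SCD1 is the exception.

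Though both libraries are labelled liver, hepatocyte markers were far lower in replicate 2, and lung markers were abundant in both. The tissue make-up of either library was not tested. The 12 hepatocyte markers together held 397 TPM in replicate 2, against 12339 TPM in replicate 1 (TPM, a share of all transcripts corrected for length). Summed over all assembled genes of a name, all 12 were over 2-fold lower in replicate 2. On assembled genes with a mouse best match alone, 4 of 6 tested were over 2-fold lower and 1 higher. The higher one was TF, with 83 counts in replicate 2 and 10 in replicate 1. Alveolar type II cell markers summed to 5797 and 3691 TPM in the same order. Club and airway secretory markers summed to 13420 TPM in replicate 2, against 8381 TPM in replicate 1. Heart muscle markers had a median log2 ratio of 0.05 and skeletal muscle markers one of -0.77. In replicate 2 albumin (ALB) was at 176 TPM and the surfactant protein SFTPC at 4047 TPM; in replicate 1 they were at 7990 and 2554 TPM. SCGB1A1, the defining marker of club cells, had 24 and 1 counts, replicate 2 first, while SCGB3A1 alone held 12898 and 8069 TPM of the airway sum. BPIFA1, on a row with a mouse best match, had 224 counts in replicate 2 and 1 in replicate 1, a log2 ratio of 3.49. Of 3 airway markers tested it was the 1 over 2-fold higher, where 0.0266% of all names lie. None of these hepatocyte or alveolar markers was at 0 counts in either library. In bulk samples fewer cells of a type and less RNA per cell cannot be told apart. The libraries held 18778331 expected counts in replicate 2 and 18741210 in replicate 1, and the 42 assembled genes took 16080 and 10854 of them.

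All 10 names together held 304 TPM in replicate 2 and 183 TPM in replicate 1, which is 0.0305% and 0.0184% of the total. Log2 ratios below are of replicate 2 over replicate 1, on CPM (counts scaled to a common library total) plus a pseudocount of 1, after TMM scaling and removal of the median over all assembled genes. Only 1 name, MLXIPL, was over 2-fold apart, and it was lower in replicate 2. Among 11289 names with a mean of at least 1 CPM, 5.21% lay more than 2-fold below and 0.0266% more than 2-fold above replicate 1. At 1.5-fold, a limit chosen after the values were seen, MLXIPL was lower and SCD1 higher, where 8.42% and 0.443% of all names lie. The other 9 names had ratios from 0.06 for ACACB to 0.77 for SCD1, all above 0, where 48.2% of all names lie. The median of the 10 was 0.20, against -0.01 over all names, and 0.18 for the alveolar type II markers. Summed over mouse-match rows alone, 0 of 5 tested names were over 2-fold apart, against a background of 4.94% lower and 0.609% higher. Summed over the other rows, 1 of 8 was lower, against 5.52% lower and 0.00972% higher. The part of cell make-up in this was not tested.

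**Figure D1:**
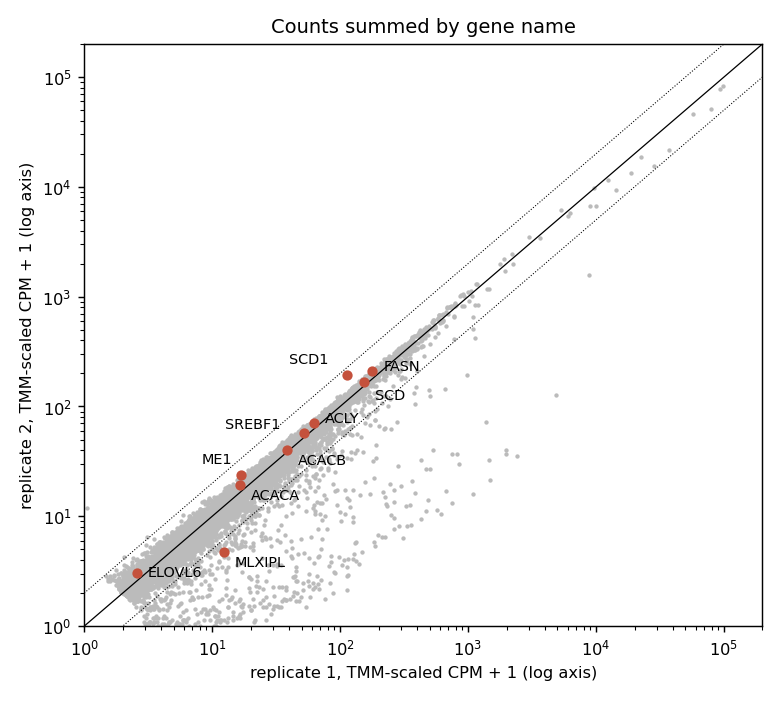
TMM-scaled CPM + 1 of each gene name in replicate 2 (vertical, log axis) and replicate 1 (horizontal, log axis), summed over its assembled genes; grey points are all 11289 names tested, red points the 10 fatty acid synthesis names, the solid line marks equal values and dotted lines 2-fold. MLXIPL lies below the lower dotted line, and SCD1 is the member closest to the upper one.

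FASN, the synthase that makes palmitate, had the highest summed TPM of any single name. It held 62.3 TPM in replicate 2, against 38.4 TPM in replicate 1. The desaturase is split over the names SCD and SCD1, which were not added together in this order. SCD, which puts the first double bond into stearate and palmitate, had 57.7 and 41.2 TPM in the same order. ACLY, which cleaves citrate, had 46.4 TPM in replicate 2 and 22.8 TPM in replicate 1. Its longest row, which held most of its counts, had only 14.7 and 9.58 of these TPM. The rest lay on rows of 236 to 656 bases with few counts, so the place of ACLY in this order is uncertain. Replicate 2 had the higher TPM for FASN, SCD and ACLY. It also did for the median of all names, whose log2 ratio of TPM + 1 was 0.33. The FASN and SCD ranges overlapped.

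SREBF1, the factor that turns on most of these enzymes, was at 34.2 TPM in replicate 2, against 24.8 TPM in replicate 1. SCD1, listed apart because its best match is the mouse desaturase of that name, had 38.8 and 16.6 TPM in that order. ACACA, the cytosolic carboxylase that makes malonyl-CoA for synthesis, had 19.5 TPM in replicate 2 and 10.7 TPM in replicate 1. Ordered by mean TPM, each name from FASN down to ACACB overlapped its neighbour in range.

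ACACB, the mitochondrial carboxylase whose malonyl-CoA restrains fatty acid oxidation, was at 11.2 TPM in replicate 2, against 10.2 TPM in replicate 1. ELOVL6, which lengthens palmitate, was at 17.6 and 4.70 TPM in that order. MLXIPL was at 9.05 TPM in replicate 2, against 8.98 TPM in replicate 1, and ME1, the malic enzyme that supplies NADPH, at 7.06 and 4.59 TPM. The last 2 neighbouring pairs of this order, ACACB over MLXIPL and MLXIPL over ME1, did not overlap in range with all rows counted.

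Summed TPM of fragmented names rest partly on short pieces. The 9 member rows (assembled genes) under 300 bases held 47.97 TPM in replicate 2 and 12.17 TPM in replicate 1, from only 40.31 and 12 counts. Without them ELOVL6 was at 2.51 TPM in replicate 2, against 1.72 TPM in replicate 1, and MLXIPL at 5.44 and 8.34 TPM. FASN then had 52.5 TPM in replicate 2, against 34.2 TPM in replicate 1, below SCD in both libraries. ME1 was then at 7.06 and 3.58 TPM, replicate 2 first, so its range overlapped that of MLXIPL. Across assembled genes with at least 100 counts in each library, 1 count was worth 1.13 times as much TPM in replicate 2 as in replicate 1 at the median. The ratios used here therefore come from counts.

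Levels per assembled length gave another order. By scaled CPM per kilobase of summed assembled length, SCD1 was highest, with 40.96 in replicate 2 and 23.9 in replicate 1. SCD followed with 23.1 and 21.0, FASN with 15.4 and 13.2, and SREBF1 with 11.0 and 9.92, replicate 2 first. MLXIPL was lowest by the mean of both libraries, with 0.783 in replicate 2 and 2.42 in replicate 1. This measure counts every assembled base of a name once, so overlapping pieces of 1 transcript lower it.

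**Figure D2:**
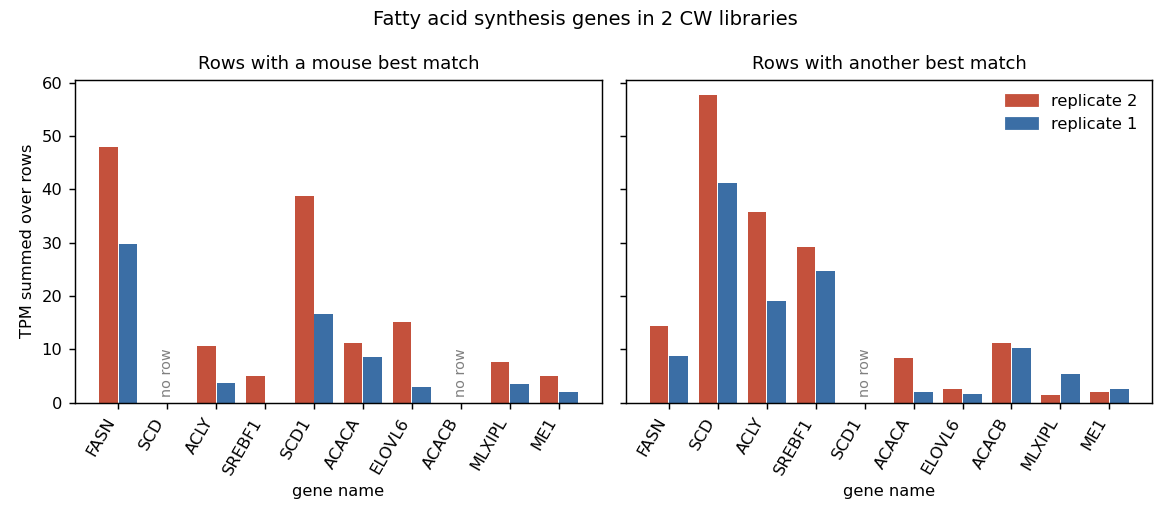
TPM in replicate 2 (red, left bar) and replicate 1 (blue, right bar), summed over the assembled genes of each name with a mouse best match (left panel) and with another best match (right panel); each bar is 1 library. FASN with a mouse match reaches 47.9 TPM in replicate 2 and 29.7 TPM in replicate 1, and MLXIPL in the right panel is the clearest case of a lower bar in replicate 2.

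The regulators differed from each other. SREBF1 had 1171 counts in replicate 2 and 872 in replicate 1, a log2 ratio of 0.15. Its main assembled gene, 4421 bases long with a pig best match, had 1144 and 845 counts in that order. The scaled fold without a pseudocount was 1.11, with an exact binomial 95% interval of 1.02 to 1.22. These intervals cover counting error only. SREBF1 thus stood at nearly the same scaled count in both libraries, while hepatocyte markers did not.

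MLXIPL, the glucose-responsive regulator that is abundant in liver, had 76.1 counts in replicate 2 and 194 in replicate 1. The log2 ratio was -1.40, with a scaled fold of 0.324 (95% counting interval 0.245 to 0.425), and 3.9% of all names were lower. On summed TPM + 1, where the median over all names was 0.33, the ratio less that median was -0.32, which is under 2-fold; the mouse-match rows held 7.59 TPM of the name in replicate 2 and 3.52 TPM in replicate 1. Its rows fell into 2 Trinity clusters, groups of transcripts that share assembled sequence. The cluster with human and rat best matches had 43.0 counts in replicate 2 and 170 in replicate 1. It had a log2 ratio of -1.83 and a fold of 0.210 (0.146 to 0.294). The cluster with mouse best matches had 33.1 and 24 counts in that order, a log2 ratio of 0.11 and a fold of 1.14 (0.653 to 2.01). The hepatocyte markers had a median of -4.28, so MLXIPL was lower in the same library but by less; the part of hepatocyte content in it was not tested.

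The carbon-cleaving and carboxylating enzymes were nearly even. ACLY had 1442 counts in replicate 2 and 1054 in replicate 1, with a log2 ratio of 0.18, and its 7 rows lay in 7 clusters. Of these counts 1363 and 1006 were on a single row of 4321 bases with a human best match. ACACA had 375 and 262 counts, replicate 2 first, with a log2 ratio of 0.23 on 6 rows. Its best matches were mostly mouse, which held 360 counts in replicate 2 and 257 in replicate 1. ACACB had 805 and 640 counts in that order, all on rows with a human best match, and a log2 ratio of 0.06. The ACACB fold of 1.04 had an interval of 0.938 to 1.16, so its difference was within counting error, and on summed TPM + 1 its ratio, less the median of 0.33 over all names, was -0.21.

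FASN, with 9 rows in 7 clusters, had 4307 counts in replicate 2 and 3035 in replicate 1 and a log2 ratio of 0.23. Nearly all of them, 4204 and 2987, lay on 1 row of 9275 bases with a mouse best match, which had a log2 ratio of 0.22. A second row of 1548 bases with a mouse best match stood apart, with 75.4 counts in replicate 2 and 20.0 in replicate 1. Its log2 ratio was 1.10 and its fold 3.11 (1.88 to 5.37). The protein domain listed for it is the ketoacyl synthase, the condensing part of the enzyme. Of 1783 assembled genes with a mouse best match, 0.785% were over 2-fold higher in replicate 2, against 0.0248% of those matching another species. The 6 FASN rows of other species had 27.7 counts in replicate 2 and 25.5 in replicate 1, and a log2 ratio of -0.10.

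The desaturase rows carried the next difference. Under the name SCD, 4 rows had 3449 counts in replicate 2 and 2595 in replicate 1, a log2 ratio of 0.14 with a fold of 1.10 (1.05 to 1.16). The SCD1 row, TRINITY_DN119_c0_g2 of 4668 bases, had 3947 and 1905 counts in that order. Its log2 ratio was 0.77, a fold of 1.72 (1.62 to 1.81), and 99.9% of all names were lower. The largest SCD row, TRINITY_DN119_c0_g1 of 5236 bases with a sheep best match, belongs to the same cluster and had 3331 counts in replicate 2 and 2477 in replicate 1. Closely similar rows can share reads out between them, so the balance between SCD and SCD1 is uncertain. Both rows list the same fatty acid desaturase domain.

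ME1 showed the same arrangement. The row of 3109 bases with a mouse best match had 324 counts in replicate 2 and 144 in replicate 1, with a log2 ratio of 0.83 and a fold of 1.86 (1.53 to 2.28). The human-match row of the same cluster, 3226 bases long, had 144 and 124 counts in that order, with a log2 ratio of -0.05 and a fold of 0.962 (0.751 to 1.23). Summed over the name, ME1 had a log2 ratio of 0.50, above 99.0% of all names. The mouse-match rows were thus the higher ones in replicate 2 for both SCD1 and ME1, while their partners stayed near 0.

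ELOVL6 was too thinly covered to place. Its human-match row had 32.8 counts in replicate 2 and 25.3 in replicate 1, a log2 ratio of 0.08. Its mouse-match row of 205 bases had 9.0 and 2.0 counts in that order, a fold of 3.73 with an interval of 0.771 to 35.4. The unnamed rows of the same Trinity cluster are given among the other observations.

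Over all 42 rows, 16 passed the minimum of 1 CPM, 6 of them with a mouse best match. At the limit of 1.5-fold, 3 of the 6 mouse-match rows were higher in replicate 2 (Scd1, Me1 and the shorter Fasn row), and 0 of the 10 other rows. Among all assembled genes tested, 2.02% with a mouse best match and 0.57% with a match to another species were over 1.5-fold higher. Over 1.5-fold lower were 0 of the 6 mouse-match rows and 1 of the 10 others, with 9.48% and 10.6% as background. At 2-fold, the longest MLXIPL row was lower, where 6.81% of all assembled genes tested lie (5.44% of mouse-match and 7.38% of other-species ones), and the shorter Fasn row was higher, where 0.0999% lie. The share of member counts on mouse-match rows was 55.8% in replicate 2, with a 95% Wilson interval of 55.1% to 56.6%, against 49.3% in replicate 1, with one of 48.4% to 50.2%. Without the Scd1 row the mean of these shares, 52.6%, became 39.98%.

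**Figure D3:**
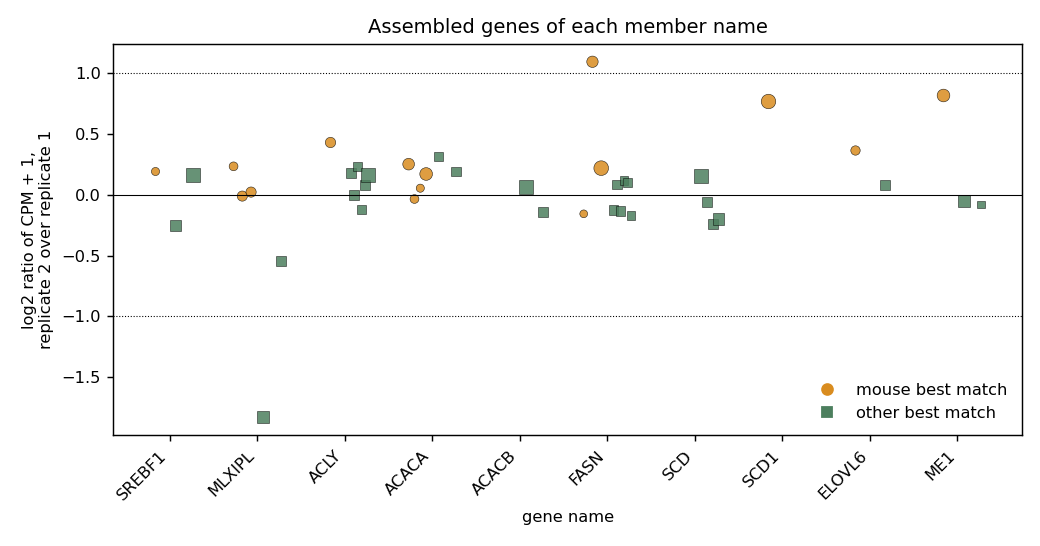
Log2 ratio of CPM + 1 (vertical, replicate 2 over replicate 1, median removed) of each of the 42 assembled genes by name; circles have a mouse best match, squares another, point area grows with the logarithm of summed counts, and dotted lines mark 2-fold. A Fasn circle at 1.10 lies above the upper line, Me1 (0.83) and Scd1 (0.77) come next, and 1 MLXIPL square at -1.83 lies below the lower line.

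Rows of 1 cluster that match mouse and another species were compared across the table. Over all 288 such pairs the mouse row was over 1.5-fold above its partner on this ratio in 17.7% and over 1.5-fold below it in 6.94%, with a median difference of 0.06. In the 237 pairs whose other row lay within 1.5-fold between the libraries, as in both pairs of members, these shares were 5.49% and 8.02%. The limit of 1.5-fold was chosen after the values were seen. Both pairs of members are counted among the 237, and a row can enter several pairs. The SCD1 and SCD pair differed by 0.62 and the ME1 pair by 0.87, both past that limit of 1.5-fold. The median difference over the 237 pairs was -0.03. Names summed over mouse-match rows had a median log2 ratio of -0.03, and names summed over other rows one of -0.01, while the share over 2-fold higher was 0.609% for mouse-match and 0.00972% for other rows.

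Fat cells also make these enzymes in bulk, and adipocyte markers were measured in both libraries. The 10 markers held 544 TPM in replicate 2, against 401 TPM in replicate 1, and 0 were at 0 counts. Most of this sum was FABP4, with 258 and 172 TPM in that order, and PNPLA2, with 136 and 101 TPM. ADIPOQ held 6.42 and 2.14 TPM, and LEP and RETN were under the minimum of 1 CPM. Of 8 tested, CIDEC lay over 2-fold lower and 0 lay over 2-fold higher, with a median log2 ratio of 0.02. These calls include the pseudocount. Without it the fold of ADIPOQ was 2.20 (95% counting interval 1.48 to 3.35), past 2-fold. The part of fat tissue in the results was not tested.

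Split by best match, the adipocyte markers behaved unequally. CFD (adipsin) with a mouse match had 180 counts in replicate 2 and 33.0 in replicate 1, a log2 ratio of 1.73. Its other rows had 1203 and 1634 counts in that order, a ratio of -0.70. ADIPOQ (adiponectin), found with a mouse match alone, had 93.0 counts in replicate 2 and 35 in replicate 1, a ratio of 0.85. CIDEA, also found with a mouse match alone, had 98.01 and 107 counts in that order, a ratio of -0.34. PLIN1, which coats fat droplets, had a ratio of 0.55 on mouse-match rows and 0.14 on the others. CIDEC, a droplet fusion protein that liver can also express, had 0.31 on its mouse-match row and -3.90 on the other. FABP4, the most abundant of these markers, differed little, with 0.17 on the mouse-match row and 0.14 on the other. LPL (-0.18 on mouse-match rows and 0.13 on others) and PNPLA2 (-0.03 and 0.06) went the other way. Over the list the median was 0.24 for 8 tested names on mouse-match rows and 0.10 for 6 on other rows.

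**Figure D4:**
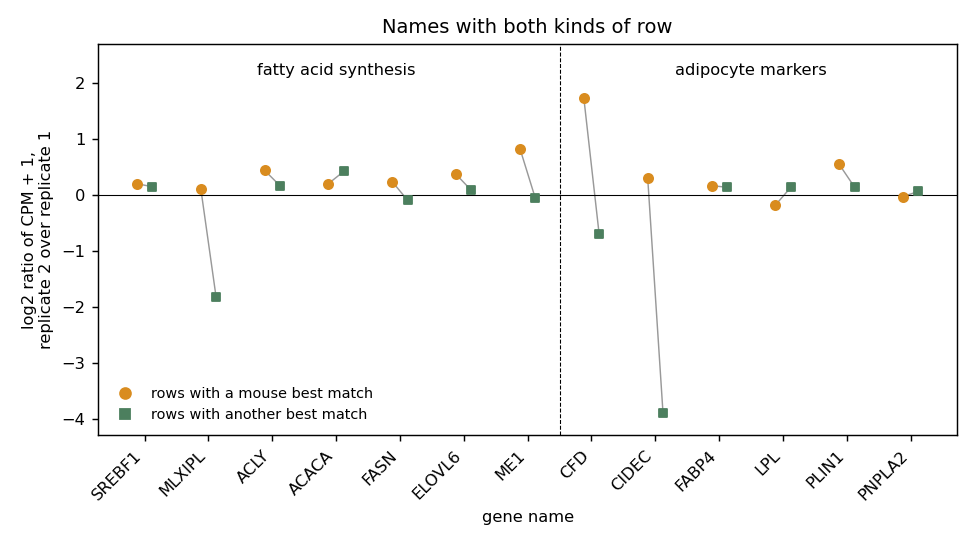
Log2 ratio of CPM + 1 (vertical, replicate 2 over replicate 1, median removed), summed over mouse-match rows (circles) and other rows (squares), for the fatty acid synthesis names (left of the dashed line) and adipocyte markers (right) that have both kinds. The widest gaps are those of MLXIPL, CFD, CIDEC and ME1, and some names lie close together, such as FABP4 and PNPLA2. Points under the minimum of 1 CPM are drawn too: SREBF1, ACLY and ELOVL6 on mouse-match rows and ACACA on other rows. The SREBF1 circle rests on 3 counts in replicate 2 and 0 in replicate 1, so its place is set by the pseudocount.

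The wider pathway was described with 6 further lists of 92 genes. Of these 86 were found and 81 tested. More than 2-fold differences were found for 12 genes, all lower in replicate 2, and the median log2 ratio was -0.17. The background over all names is the 5.21% and 0.0266% given above.

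Carbon and NADPH supply was nearly even, with 1 of 11 genes lower by over 2-fold and a median of 0.00. TALDO1 and TKT of the pentose phosphate pathway had ratios of 0.08 and 0.04, and the citrate synthase CS had 0.05. MDH1, the cytosolic malate dehydrogenase, had 106 TPM in replicate 2 and 164 TPM in replicate 1, with a ratio of -1.05. The mitochondrial citrate exporter SLC25A1, which feeds ACLY, had 46.1 and 48.97 TPM in that order and a ratio of -0.68.

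Among regulators 1 of 19 tested was lower by over 2-fold, and the median was -0.04. NR1H3, the sterol-sensing receptor LXR alpha that activates SREBF1, had 4.16 TPM in replicate 2 and 9.97 TPM in replicate 1, with a ratio of -1.50. INSIG1, which holds SREBP in the endoplasmic reticulum, had -0.21, and the protease MBTPS1 that cuts SREBP had 0.12. MID1IP1, which helps carboxylase form polymers, had 0.14, the transcription factor USF1 0.05, and PRKAA2, a subunit of the kinase that inhibits carboxylase, -0.44. PRKAA2 had only 31 counts in replicate 2 and 41 in replicate 1. Its fold of 0.626 had an interval of 0.38 to 1.02, so its difference was within counting error. NR1H3 was thus the regulator beside MLXIPL that differed by over 2-fold.

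The other elongases and desaturases were uneven. In replicate 2, 4 of 14 tested were lower by over 2-fold, and the list median was -0.17. FADS1, the delta-5 desaturase, had 2.97 TPM in replicate 2 and 50.4 TPM in replicate 1, with a ratio of -3.18. ELOVL2, which lengthens polyunsaturated chains, had 0.19 and 3.19 TPM in that order and a ratio of -3.46. FADS3 had 34.7 TPM in replicate 2 and 70.9 TPM in replicate 1 (ratio -1.98), and FADS6 had 0.17 and 4.32 TPM (ratio -2.83). ELOVL1, ELOVL5 and the elongation reductase TECR had ratios of 0.24, -0.14 and -0.21.

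In triglyceride and phospholipid synthesis 2 of 18 tested were lower by over 2-fold, and the median was -0.23. The droplet protein CIDEB had 0.55 TPM in replicate 2 and 12.8 TPM in replicate 1 (ratio -3.44), and the acyltransferase MOGAT2 had 2.35 and 9.89 TPM (ratio -1.24). PLIN2, which coats lipid droplets, had 122 TPM in replicate 2 and 106 TPM in replicate 1, with a ratio of -0.31. LPCAT1, an acyltransferase of surfactant phospholipid, had 46.1 and 30.99 TPM in that order and a ratio of 0.12. AGPAT2 had a ratio of -0.27 and CHPT1, which makes phosphatidylcholine, -0.16.

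Of 13 tested genes of fatty acid activation and binding, 4 were lower by over 2-fold, and the median was -0.43. SLC27A5, the bile acid and fatty acid ligase of liver, had a ratio of -2.13, SLC27A2 one of -1.97 and THEM4 one of -1.42. FABP1, the liver fatty acid binding protein, had 2.0 counts in replicate 2 and 62.0 in replicate 1, a fold of 0.0267 with an interval of 0.00316 to 0.101. FABP5, made in many epithelia, had 134 TPM in replicate 2 and 83.8 TPM in replicate 1 with a ratio of 0.21, and ACSL5 had one of 0.11. The fatty acid transporter CD36 had -0.66 and the acyl-CoA binding protein DBI -0.43.

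In the separate mitochondrial synthesis pathway, which makes the precursor of lipoic acid, 0 of 6 tested genes were over 2-fold apart, with a median of -0.30. Ratios were -0.02 for the malonyl transferase MCAT, -0.30 for the ketoacyl synthase OXSM and -0.50 for the acyl carrier NDUFAB1. The reductase MECR had -0.96. Without the pseudocount its fold was 0.489 (0.409 to 0.584), past 2-fold. The carrier NDUFAB1, at 73.5 TPM in replicate 2, against 77.0 TPM in replicate 1, was the most abundant of this list.

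**Figure D5:**
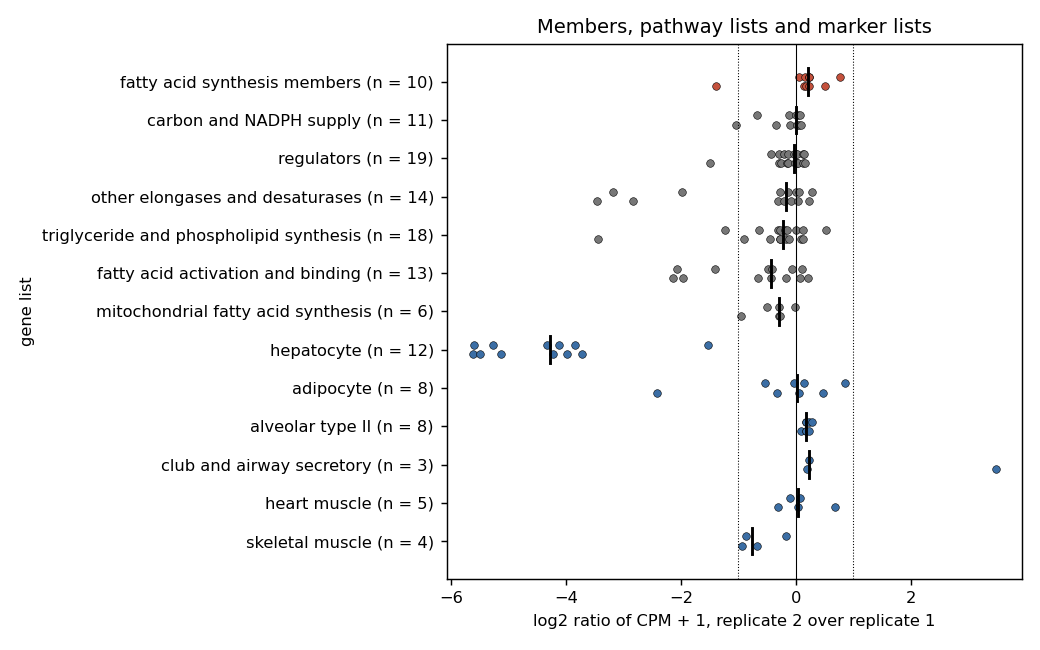
Log2 ratio of CPM + 1 (horizontal, replicate 2 over replicate 1, median removed) of the tested genes of each list; red points are the 10 fatty acid synthesis names, grey points the further pathway lists, blue points the marker lists, vertical bars the list medians, and dotted lines 2-fold. The members' median is 0.20 and the hepatocyte markers' -4.28. Of the other elongases and desaturases, 4 of 14 lie left of the lower dotted line, and 4 of 13 activation and binding genes do. Over all names 5.21% do.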

How the data were processed

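RNA of 2 libraries was read from poly(A)-selected libraries, per the labels' protocols. For each library the authors deposited a table of assembled genes, identical in both, whose identifiers are Trinity clusters. Expected counts are marked as counts per the file headers, hold decimals, and were rounded before scaling. The other deposited column was read as TPM because it sums to 996239 in replicate 2 and 996837 in replicate 1; its header gives no unit. Adapters were trimmed with cutadapt 1.9, per the submitters' processing notes, which also list the mm10 mouse build for replicate 1; its use and the quantifier are not given in the sources used here.

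Rows were taken where the upper-cased name equals a member, with "OS=Mus musculus" in the protein description as the mouse match. TMM factors came from edgeR 4.0.16 in R 4.3.3 (1.09933 and 0.909643, replicate 2 first). The log2 ratio of CPM + 1 was centred on the median of assembled genes averaging 1 CPM or more, and 2-fold was the limit for calling a difference. The pseudocount of 1 CPM shrinks ratios of low genes. Fold intervals are exact binomial and shares have Wilson intervals, both at 95% and for counting error only; a count of 3, about 0.145 CPM in replicate 2 and 0.176 CPM in replicate 1, was the detection floor. No test was run, since 1 library stands against 1. The procedure was tested on simulated data, with changes well beyond 2-fold in genes well above the minimum of 1 CPM. Changes near 2-fold or 1.5-fold, and changes in genes near that minimum, were not simulated. Python 3.11.15, numpy 2.4.6, pandas 2.3.3, scipy 1.17.1 and statsmodels 0.14.6 were used.

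Named genes are all members and, from each further list, up to 4 by mean TPM and up to 2 by absolute ratio. FADS6, SLC27A2, THEM4, BPIFA1 and the adipocyte markers were named after their values were seen. With 2 libraries no likeness between gene patterns was computed. The members and lists were chosen with earlier results of these data known. The alternatives were another pseudocount, scaling, filter and summing of rows, and leaving out each replicate.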

Additional observations from a re-analysis of the deposited data

How the results depend on the processing

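The count of 1 member over 2-fold apart was 2 with library size scaling alone, which moves the median of all genes by 0.231 and puts SCD1 at 1.04. It was 0 with a filter of 10 CPM on the mean, where MLXIPL is not tested. Among settings added after the data were seen it was 2 at 1.5-fold and 0 on mouse-match rows alone, where MLXIPL was reversed to 0.114. With that filter, which leaves fewer genes, 5 in place of 12 further pathway genes and 430 in place of 1521 assembled genes were over 2-fold apart; the other settings gave 10 to 13 and 1358 to 2255. The share of TPM, 0.0244%, became 0.033% without the 10 highest genes, which shrinks the total, and 0.0184% to 0.0305% without each replicate. The mouse-match share of member counts, 52.6%, was 41.6% on TPM (the cause was not tested), 39.98% without the Scd1 row, and 49.3% to 55.8% without each replicate. With summed TPM + 1, less the median of 0.33 over all names, ELOVL6 moved to 1.37, past 2-fold, and MLXIPL to -0.32, under 2-fold. ACACB moved to -0.21, ACLY to 0.66, ACACA to 0.47, FASN to 0.35 and ME1 to 0.20. Over all alternatives, 22 of 67 member ratios moved beyond the counting interval and 1 was reversed. The 9 members other than MLXIPL stayed above 0 with a pseudocount of 0.1, with DESeq2 1.42.0 size factors and with library size scaling. Ratios between the libraries cannot be formed with a replicate left out. No paired analysis was possible because both libraries belong to a single group.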

Other observations

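The Trinity clusters that hold member rows also hold 5 rows with no name, none of which enters the values above. The cluster of ELOVL6 has 3 of them. The row TRINITY_DN39429_c0_g5, 812 bases long, had 37.6 counts in replicate 2 and 3.0 in replicate 1, a fold of 10.5 with a counting interval of 3.33 to 53.1. The row TRINITY_DN39429_c0_g4, 1654 bases long, had 79.4 counts in replicate 2 and 35 in replicate 1, a fold of 1.87 (1.24 to 2.87). The row TRINITY_DN39429_c0_g1, 1755 bases long, had 84.3 counts in replicate 2 and 65.7 in replicate 1, a fold of 1.05 (0.754 to 1.48). The unnamed row of an ACACA cluster had 856 counts in replicate 2 and 615 in replicate 1, more than all named ACACA rows, with a fold of 1.15 (1.04 to 1.28). The unnamed row of an SREBF1 cluster had 70.0 and 68.0 counts in that order, a fold of 0.853 (0.602 to 1.21). Levels given by name leave out these rows, and which transcripts they belong to was not tested.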
